A study of Mus musculus with 54 samples.

Results

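Esrrb, Tfcp2l1, Tbx3, Zfp42 and Nr0b1 are 5 transcription regulators of naive mouse pluripotency, and they were taken by name from the 20036 genes of the deposited expression table. All 5 were followed in every group of the study. Messenger RNA had been sequenced from mouse embryonic stem cells (ESC), from the epiblast-like cells (EpiLC) made from them, and from primordial germ cell-like cells (PGCLC) at day 2, the start of the germ line in culture. Each of 9 lines was sampled at the 3 stages with 2 libraries per group, which gives 54 libraries in 27 groups. The lines are labelled Ovol1KO, Ovol2KO and Ovol3KO (genotypes given as mutants of those genes), TKO, Cdh1-Tg, Ovol2a-Tg, Ovol2a/2b-Tg and Ovol2b-Tg (the transgenic lines have OE in their genotype labels), and wild type (WT), all on the strain C57BL/6 X 129/SvJ. TKO is not spelled out in the labels, and neither the background nor the promoter of the transgenic lines is given in the sources used here. The table's headers mark the lines with an Ovol2 transgene with "res" and Cdh1-Tg with "EcadOE". The Ovol genes code for zinc finger factors that act on transcription, and Cdh1 codes for E-cadherin, which holds epithelial cells together. Levels are in TPM, transcript abundance corrected for gene length and library size. All 5 genes passed the filter for testing, which kept the 14416 genes that reached 1 TPM in 2 or more libraries. A call needed both a p under 0.05 after Benjamini-Hochberg (BH) adjustment across the tested genes, and a log2 fold change of 1 or more in size on the log2(TPM + 1) scale. That scale understates the change of scarce transcripts.

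Naive pluripotency is the state of the early mouse epiblast and of ESC kept under leukaemia inhibitory factor (LIF) and kinase inhibitors. It is held by a network of transcription factors, many of which bind and activate each other's genes. These 5 are counted with that network, Zfp42 mainly as a reporter of the state. The network is fed by STAT3 below the LIF receptor and by relief of the repressor TCF7L1 through WNT signalling. The network is shut down on entry into the formative state that EpiLC model. Parts of it are switched on again in mouse primordial germ cells. Outside pluripotent cells TBX3 is best known as a regulator of mesoderm, heart, limb and extraembryonic tissue.

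On the mouse genome build GRCm38, with the GENCODE annotation, Esrrb lies on the plus strand at chr12:86361117-86521628, Tfcp2l1 on the plus strand at chr1:118627945-118685168 and Tbx3 on the plus strand at chr5:119670669-119684724. Zfp42 lies on the minus strand at chr8:43295063-43306980 and Nr0b1 on the plus strand at chrX:86191764-86195947. RefSeq promoter windows of build GRCm38.p6, which run from 250 bases before to 50 bases after a start site, were matched by symbol for 4 of the 5 members and gave 5 windows, with Tbx3 the member left without one. Both strands of each window were searched for 4 motifs. The STAT motif TTCNNNGAA is held by 8.3% of 32851 mouse promoter windows, the oestrogen-related receptor half-site AAGGTCA by 4.72%, the OVO core CCGTTA by 2.76% and the octamer ATGCAAAT by 1.74%. In the 5 windows 2 matches were found. Esrrb held a STAT motif at −178 to −170 from its start site, and Zfp42 held the octamer, read on the opposite strand as ATTTGCAT, at −186 to −179. The 2 windows that carry those matches (capitals) are printed, 5′ to 3′ on the strand of the gene. The printed Esrrb window is chr12:86360867-86361166 (plus strand) and the Zfp42 window is chr8:43306960-43307259 (minus strand).
Esrrb promoter: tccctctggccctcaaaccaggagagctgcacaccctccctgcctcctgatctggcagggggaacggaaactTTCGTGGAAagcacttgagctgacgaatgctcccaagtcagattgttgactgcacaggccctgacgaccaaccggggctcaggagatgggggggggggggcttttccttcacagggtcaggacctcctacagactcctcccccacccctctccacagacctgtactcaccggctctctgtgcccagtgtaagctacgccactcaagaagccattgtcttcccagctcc
Zfp42 promoter: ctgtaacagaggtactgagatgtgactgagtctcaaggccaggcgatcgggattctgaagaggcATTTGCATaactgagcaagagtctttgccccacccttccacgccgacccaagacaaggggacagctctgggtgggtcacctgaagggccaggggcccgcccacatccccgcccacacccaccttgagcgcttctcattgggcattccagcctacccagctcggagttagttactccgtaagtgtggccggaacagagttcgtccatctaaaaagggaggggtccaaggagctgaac
A match says that these letters stand in the window and says nothing of binding.

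Sequencing depth, recovered from the TPM values as whole reads, was 2158379 to 26728538 reads per library. The stages stood apart by their own markers in WT. The summed level of 9 formative genes was 2929 to 2957 TPM in EpiLC against 179.6 to 183 TPM in ESC, and that of 6 primitive streak genes was 1936 to 1998 TPM in PGCLC against 5.06 to 5.36 TPM in EpiLC and 9.33 to 10.3 TPM in ESC. The sum of 6 early germ cell genes was 154 to 164 TPM in PGCLC against 36.3 to 39.98 TPM in EpiLC, but it was higher still in ESC, at 354 to 372 TPM. Title and cell type tag disagree for 8 libraries. The tag reads EpiLC for the Ovol2a-Tg pair titled PGCLC, PGCLC for the Cdh1-Tg pair titled ESC, and ESC for the Cdh1-Tg pairs titled EpiLC and PGCLC. Titles and column names were followed. By title, the streak sum in Cdh1-Tg was 6.84 to 6.93 TPM in ESC, 9.82 to 12.8 TPM in EpiLC and 1155 to 1186 TPM in PGCLC, and the formative sum was 515 to 524 TPM, 3662 to 3747 TPM and 226 to 230.5 TPM. The streak sum of the Ovol2a-Tg pair titled PGCLC was 1217 to 1539 TPM, against 8.60 to 8.65 TPM in its EpiLC. A partial deletion need not alter the TPM of a gene, so the knockout labels could not be checked this way. Ovol2 stood at 4.74 and 6.68 TPM in PGCLC labelled Ovol2KO and at 1.52 and 0.835 TPM in those labelled TKO, against 11.3 and 6.98 TPM in WT. In ESC labelled Ovol2KO it was at 15.3 and 14.1 TPM, against 10.6 and 4.98 TPM in WT. In PGCLC Ovol3 was at 9.84 and 7.25 TPM in the line labelled Ovol3KO against 9.39 and 9.66 TPM in WT, and Ovol1 at 0.95 and 1.35 TPM in the line labelled Ovol1KO against 1.02 and 0.325 TPM in WT. The transgenic PGCLC had 900.4 and 867 TPM of Ovol2 in Ovol2a-Tg, 345 and 296 TPM in Ovol2b-Tg and 3403 and 3189.7 TPM in Ovol2a/2b-Tg, and Cdh1 was at 562 and 563 TPM in Cdh1-Tg against 312 and 319.7 TPM in WT. Line names below are these labels, and all comparisons of lines with WT at a stage share the same WT pair. Nothing in the sources used here says that the libraries of a pair were grown separately. The p-values therefore measure the spread between these samples, which may be technical.

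In the wild type all 5 factors fell on the way from ESC to EpiLC, and their paths then parted. Tbx3 came back almost to its ESC level in PGCLC, Tfcp2l1 and Esrrb came back in part, and Zfp42 fell further. Of the genes tested, 11.2% fell and 9.33% rose between ESC and EpiLC, and all 5 factors were among those that fell.

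Tbx3, the T-box factor of the network, showed the widest swing in WT. It stood at 117 and 117 TPM in ESC, at 0 and 0.522 TPM in EpiLC, and at 106 and 86.0 TPM in PGCLC. The EpiLC values rest on 0 and 21 reads, and in the library with 0 reads a count of 3 would have been 0.362 TPM. Tbx3 fell by 6.58 ± 0.16 on the log2 scale in EpiLC relative to ESC (limma, BH adjusted p = 5.26e-28). It rose by 6.29 ± 0.16 in PGCLC relative to EpiLC (limma, BH adjusted p = 4.81e-27). Against ESC its PGCLC level differed by −0.29 ± 0.16 (limma, BH adjusted p = 0.108), and the PGCLC mean was 82.3% of the ESC mean.

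Tfcp2l1, a Grainyhead-family factor downstream of LIF and WNT inputs, stood at 337 and 267 TPM in ESC, 2.58 and 2.72 TPM in EpiLC, and 21.04 and 24.9 TPM in PGCLC. The 3 stages did not overlap. It fell by 6.36 ± 0.22 on the log2 scale in EpiLC relative to ESC (limma, BH adjusted p = 3.92e-23) and rose by 2.71 ± 0.22 in PGCLC relative to EpiLC (limma, BH adjusted p = 8.17e-13). Esrrb, an orphan nuclear receptor that can stand in for NANOG, had 367 and 346 TPM in ESC, 10.7 and 11.3 TPM in EpiLC, and 30.9 and 29.2 TPM in PGCLC. It fell by 4.90 ± 0.21 in EpiLC relative to ESC (limma, BH adjusted p = 6.2e-20) and rose by 1.37 ± 0.21 in PGCLC relative to EpiLC (limma, BH adjusted p = 1.39e-06). Both genes therefore passed through a low in EpiLC, and their PGCLC means were 7.62% (Tfcp2l1) and 8.42% (Esrrb) of the ESC means.

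Zfp42 and Nr0b1 had no such low. Zfp42, which encodes the zinc finger protein REX1 and serves as a reporter of the naive state, had 139 and 143 TPM in ESC, 38.5 and 38.0 TPM in EpiLC, and 18.7 and 16.8 TPM in PGCLC. It fell at both steps, by 1.85 ± 0.18 in EpiLC relative to ESC (limma, BH adjusted p = 4.06e-11) and by 1.07 ± 0.18 in PGCLC relative to EpiLC (limma, BH adjusted p = 3.23e-06). The second of these falls misses the fold threshold, at −0.99, when replicate 2 of WT PGCLC is left out. Nr0b1, an X-linked gene whose product DAX1 is an orphan nuclear receptor without a usual DNA-binding domain, had 107 and 102 TPM in ESC, 9.74 and 16.7 TPM in EpiLC, and 7.97 and 8.93 TPM in PGCLC. It fell by 2.94 ± 0.21 in EpiLC relative to ESC (limma, BH adjusted p = 1.82e-14), and PGCLC differed from EpiLC by −0.55 ± 0.21 (limma, BH adjusted p = 0.0227) and missed the fold threshold. Between PGCLC and EpiLC 3 members rose, against 13.5% of all genes tested, and 1 fell, against 7.62%. Between PGCLC and ESC 4 members fell, against 10.8% of all genes (14.5% rose), with log2 differences of −3.53 ± 0.21 for Esrrb, −3.65 ± 0.22 for Tfcp2l1, −2.92 ± 0.18 for Zfp42 and −3.49 ± 0.21 for Nr0b1 (limma, BH adjusted p between 1.28e-16 and 3.99e-16).

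**Figure D1:**
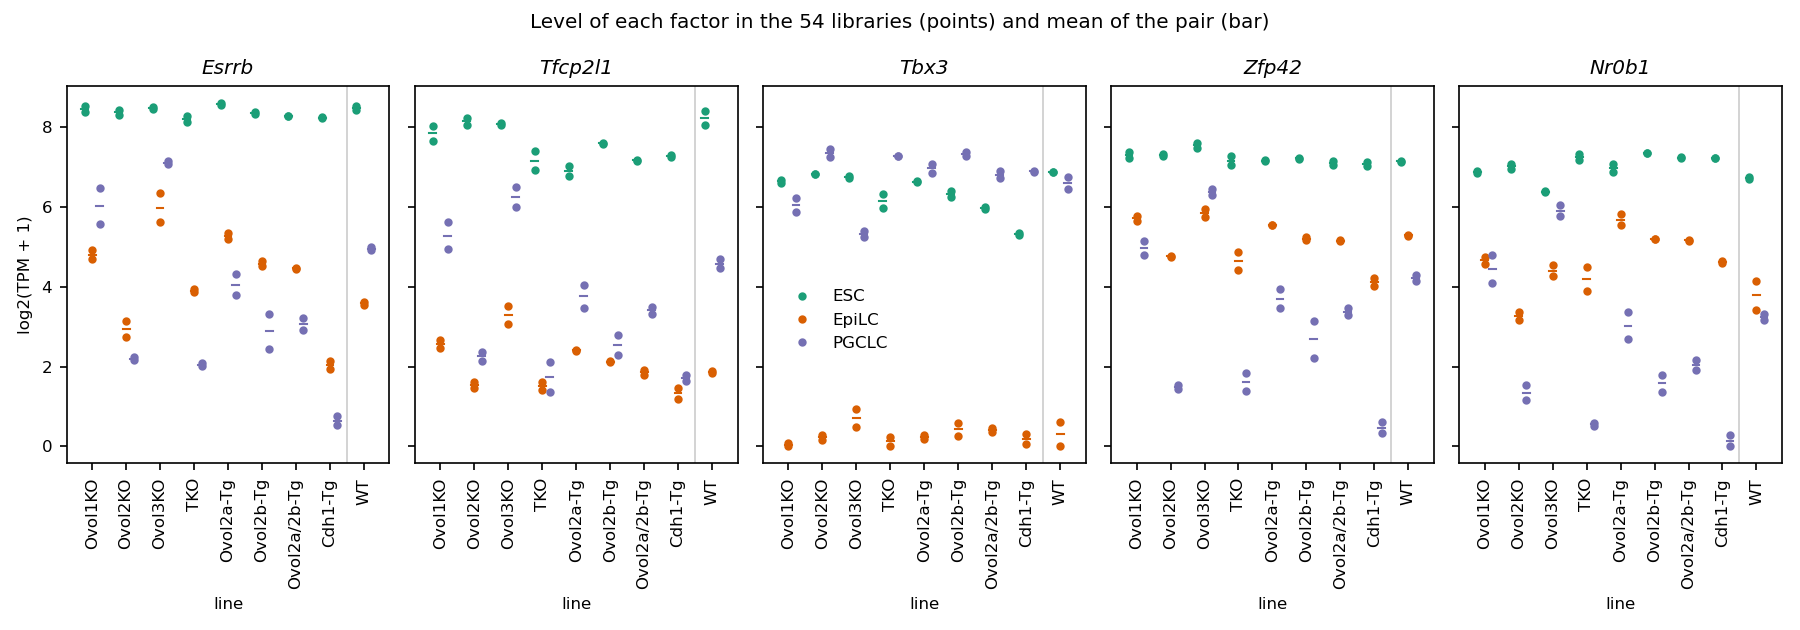
Level of each of the 5 factors as log2(TPM + 1) (vertical axis) in each line (horizontal axis, WT at the right), with 1 point per library, a bar at the mean of each pair, and colours for ESC, EpiLC and PGCLC. ESC levels of Esrrb and Zfp42 lie close together across lines, those of Tfcp2l1 and Tbx3 spread over a 3.08-fold and a 3.05-fold range, Tbx3 is near 0 in EpiLC of every line, and in PGCLC the other 4 factors spread over several log2 units.

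Other regulators of the network shared parts of these paths in WT. Of 10 further naive and general pluripotency factors, 7 fell in EpiLC relative to ESC (median log2 difference −4.05, against −0.011 over all genes), led by Klf4 (−6.93 ± 0.22), Klf2 (−6.05 ± 0.24) and Prdm14 (−5.41 ± 0.15). In PGCLC relative to EpiLC 8 of the 10 rose (median 2.36, against 0.148 over all genes), led by Klf2 (4.37 ± 0.24), Klf4 (3.84 ± 0.22) and Prdm14 (3.74 ± 0.15). The Kruppel-like factors KLF2 and KLF4 and the germ cell regulator PRDM14 thus moved as Tbx3, Tfcp2l1 and Esrrb did. Of 14 non-regulator transcripts known to be high in naive ESC, 11 fell and 3 rose in EpiLC relative to ESC, and 5 rose and 6 fell in PGCLC relative to EpiLC (median 0.27). Dppa4 (−3.17 ± 0.2), Eras (−2.84 ± 0.4) and Dppa2 (−2.68 ± 0.21) fell most at that second step. Among 6 genes of the LIF, JAK and STAT3 input 5 fell in EpiLC relative to ESC and 4 rose in PGCLC relative to EpiLC, with Stat3 itself at −3.19 ± 0.15 and then 2.81 ± 0.15.

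In ESC Esrrb and Zfp42 differed little between lines, and Tfcp2l1, Tbx3 and Nr0b1 differed more. Esrrb ranged from 281 to 388 TPM over the 18 ESC libraries (median 333) and Zfp42 from 131 to 195 TPM (median 145), so that the highest library was 1.38 and 1.49 times the lowest, against 3.08 times for Tfcp2l1, 3.05 times for Tbx3 and 2.01 times for Nr0b1. Neither was called in any line. The 2 members that were called were Tfcp2l1 and Tbx3.

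Tfcp2l1 had 168 and 120.3 TPM in ESC of TKO, 109 and 129 TPM in Ovol2a-Tg and 145 and 142 TPM in Ovol2a/2b-Tg, against 337 and 267 TPM in WT. None of these pairs overlapped WT. It fell in TKO (log2 −1.07 ± 0.15, limma, BH adjusted p = 0.000199), in Ovol2a-Tg (−1.33 ± 0.15, limma, BH adjusted p = 2.72e-05) and in Ovol2a/2b-Tg (−1.06 ± 0.15, limma, BH adjusted p = 0.000206). In each of these lines it was the only member called, where 2.48%, 2.46% and 2.84% of all genes tested fell. The values in Ovol2b-Tg (192 and 193 TPM, log2 −0.64 ± 0.15) and Cdh1-Tg (158 and 153 TPM, −0.94 ± 0.15) were short of the fold threshold. The calls in TKO and Ovol2a/2b-Tg end when replicate 1 of WT ESC is left out (−0.90 and −0.89), and that in TKO also without replicate 2 of TKO (−0.83).

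Tbx3 had 39.8 and 38.3 TPM in Cdh1-Tg ESC against 117 and 117 TPM in WT, and it fell (log2 −1.56 ± 0.10, limma, BH adjusted p = 4.37e-08), where 4.39% of all genes fell. Its means in the other lines were between 61.8 TPM in Ovol2a/2b-Tg and 113 TPM in Ovol2KO, all under both WT libraries and none past the fold threshold. Nr0b1 went the other way. It had 159 and 143 TPM in TKO, 164 and 162 TPM in Ovol2b-Tg, 152 and 148 TPM in Ovol2a/2b-Tg and 149.95 and 149 TPM in Cdh1-Tg, against 107 and 102 TPM in WT. The log2 differences were 0.51 to 0.63 with BH adjusted p between 5.87e-05 and 0.000378 (limma), past the p threshold and short of the fold threshold. Over 511 X-linked genes the median log2 difference in these 4 lines was 0.03 to 0.12, against −0.04 to 0 over other genes. In ESC of Ovol1KO, Ovol2KO, Ovol3KO and Ovol2b-Tg 0 of the 5 members were called, where 0.541%, 3.36%, 1.85% and 5.56% of all genes were. At an unadjusted p under 0.05 in limma 2, 1, 2 and 3 of them differed. Those of Ovol2KO, Ovol3KO and Ovol2b-Tg also passed the BH adjusted p threshold and missed only the fold threshold, and those of Ovol1KO did not. No share over all genes is given for counts at an unadjusted p or from limma-voom, here or below. On the recovered reads limma-voom called 0 in each of these lines. Ovol3KO ESC held the highest Zfp42 (195 and 179 TPM) and the lowest Nr0b1 (81.4 and 83.0 TPM) of any line.

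EpiLC kept different amounts of Esrrb and Nr0b1 by line, while Tbx3 was near 0 in all of them. Tbx3 did not exceed 0.926 TPM in any of the 18 EpiLC libraries, on 0 to 31 reads, and was called in no line. Esrrb had 80.0 and 48.0 TPM in EpiLC of Ovol3KO, 39.6 and 35.5 TPM in Ovol2a-Tg and 29.1 and 24.8 TPM in Ovol1KO, against 10.7 and 11.3 TPM in WT. It rose in Ovol3KO (log2 2.39 ± 0.18, limma, BH adjusted p = 5.33e-07), in Ovol2a-Tg (1.68 ± 0.18, limma, BH adjusted p = 1.5e-05) and in Ovol1KO (1.21 ± 0.18, limma, BH adjusted p = 0.00153). In Cdh1-Tg it had 3.42 and 2.86 TPM and fell (−1.54 ± 0.18, limma, BH adjusted p = 8.92e-06). The 23.9 and 22.0 TPM of Ovol2b-Tg gave 0.99 ± 0.18, just short of the fold threshold. A test on the recovered reads lost the Ovol1KO call (1.29, adjusted p 0.0956).

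Nr0b1 had 55.3 and 45.7 TPM in EpiLC of Ovol2a-Tg, 35.8 and 35.8 TPM in Ovol2b-Tg and 35.0 and 34.6 TPM in Ovol2a/2b-Tg, against 9.74 and 16.7 TPM in WT. All 3 lines carrying an Ovol2 transgene stood above both WT libraries, and Nr0b1 rose in each, by 1.89 ± 0.20 (limma, BH adjusted p = 1.37e-05), 1.42 ± 0.20 (limma, BH adjusted p = 0.000213) and 1.38 ± 0.20 (limma, BH adjusted p = 7.84e-05). Tfcp2l1 rose in Ovol3KO, at 10.5 and 7.31 TPM against 2.58 and 2.72 TPM in WT (1.42 ± 0.18, limma, BH adjusted p = 2.81e-05). Its differences in Ovol1KO (0.69 ± 0.18, limma, BH adjusted p = 0.042) and Ovol2a-Tg (0.54 ± 0.18, limma, BH adjusted p = 0.0464) missed the fold threshold. Zfp42 fell in Cdh1-Tg, at 17.7 and 15.3 TPM against 38.5 and 38.0 TPM in WT (−1.17 ± 0.12, limma, BH adjusted p = 1.94e-06). Cdh1-Tg EpiLC thus held less Esrrb and Zfp42 than WT but more Nr0b1 (24.1 and 23.2 TPM, log2 0.84 ± 0.20), the last short of the fold threshold.

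Counted by line, the members higher in EpiLC were 2 in Ovol3KO, where 1.73% of all genes rose, 2 in Ovol2a-Tg (1.52%), 1 in Ovol1KO (0.312%), 1 in Ovol2a/2b-Tg (2.23%) and 1 in Ovol2b-Tg (1.15%). In Cdh1-Tg 2 members fell, against 2.76% of all genes. In Ovol2KO and TKO 0 members were called, where 1.42% and 2.3% of all genes were. At an unadjusted p under 0.05 in limma 3 and 1 of them differed. Esrrb and Zfp42 in Ovol2KO and Zfp42 in TKO also passed the BH adjusted p threshold and missed only the fold threshold. On the recovered reads limma-voom called 0 in both lines. The Ovol2KO values of Esrrb (7.83 and 5.73 TPM) and Nr0b1 (9.36 and 7.99 TPM) lay under both WT libraries without being called. The sum of the 9 formative genes was 1751 to 1956 TPM in EpiLC of Ovol3KO, against 2929 to 2957 TPM in WT. No other line lay under WT in both libraries. In PGCLC that sum was 745 to 952 TPM in Ovol3KO and 175 to 196 TPM in TKO, against 406 to 521 TPM in WT. Its part in the members' values was not tested.

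PGCLC showed the widest differences between lines. Esrrb, Tfcp2l1, Zfp42 and Nr0b1 moved as a block, low in Ovol2KO, TKO, Ovol2b-Tg and Cdh1-Tg and high in Ovol3KO. Tbx3 fell in Ovol3KO, and in the 4 low lines its log2 differences were 0.30 to 0.76, none of them called. In these bulk libraries fewer cells with a transcript cannot be told apart from less of it per cell.

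Esrrb had 141 and 134 TPM in PGCLC of Ovol3KO and 88.8 and 46.3 TPM in Ovol1KO, against 30.9 and 29.2 TPM in WT. In the transgenic lines it had 18.9 and 12.8 TPM (Ovol2a-Tg), 6.61 and 8.37 TPM (Ovol2a/2b-Tg), 4.47 and 8.92 TPM (Ovol2b-Tg) and 0.449 and 0.685 TPM (Cdh1-Tg). In Ovol2KO and TKO it had 3.48 and 3.69 TPM and 3.02 and 3.25 TPM. No pair of any line overlapped WT. Esrrb rose in Ovol3KO (log2 2.16 ± 0.28, limma, BH adjusted p = 1.84e-05). It fell in Ovol2KO (−2.76 ± 0.28, limma, BH adjusted p = 4.43e-06), TKO (−2.91 ± 0.28, limma, BH adjusted p = 1.49e-06), Ovol2b-Tg (−2.08 ± 0.28, limma, BH adjusted p = 5.44e-05), Ovol2a/2b-Tg (−1.88 ± 0.28, limma, BH adjusted p = 0.000122) and Cdh1-Tg (−4.31 ± 0.28, limma, BH adjusted p = 3.45e-08). The Cdh1-Tg mean was 1.89% of the WT mean.

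Tfcp2l1 followed Esrrb. It had 88.9 and 63.1 TPM in Ovol3KO and 48.3 and 29.7 TPM in Ovol1KO, against 21.04 and 24.9 TPM in WT. The transgenic lines held 15.6 and 10.1 TPM (Ovol2a-Tg), 9.002 and 10.3 TPM (Ovol2a/2b-Tg), 3.85 and 5.96 TPM (Ovol2b-Tg) and 2.12 and 2.43 TPM (Cdh1-Tg), and Ovol2KO and TKO held 4.16 and 3.404 TPM and 3.34 and 1.58 TPM. It rose in Ovol3KO (1.67 ± 0.28, limma, BH adjusted p = 0.000209). It fell in the same 5 lines as Esrrb, with log2 differences between −2.87 ± 0.28 in Cdh1-Tg (limma, BH adjusted p = 1.77e-06) and −1.17 ± 0.28 in Ovol2a/2b-Tg (limma, BH adjusted p = 0.00499).

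Zfp42 had 86.6 and 78.6 TPM in Ovol3KO, 1.71 and 1.89 TPM in Ovol2KO, 2.58 and 1.62 TPM in TKO, 3.67 and 7.81 TPM in Ovol2b-Tg and 0.266 and 0.517 TPM in Cdh1-Tg, against 18.7 and 16.8 TPM in WT. The Cdh1-Tg values rest on 3 and 5 reads, and their ratio to WT was 2.17% (95% exact interval 0.922% to 4.37%, for counting error only). Zfp42 rose in Ovol3KO (2.16 ± 0.26, limma, BH adjusted p = 7.48e-06) and fell in Ovol2KO (−2.74 ± 0.26), TKO (−2.61 ± 0.26), Ovol2b-Tg (−1.55 ± 0.26) and Cdh1-Tg (−3.76 ± 0.26), with BH adjusted p of 0.000322 or less in limma. In Ovol2a/2b-Tg it had 8.77 and 10.02 TPM (−0.85 ± 0.26) and in Ovol2a-Tg 14.3 and 10.04 TPM (−0.53 ± 0.26), both short of the fold threshold. In Ovol1KO the 34.7 and 26.8 TPM gave 0.75 ± 0.26, also not called.

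Nr0b1 had 54.2 and 64.7 TPM in Ovol3KO, 1.23 and 1.90 TPM in Ovol2KO, 0.431 and 0.509 TPM in TKO, 2.47 and 1.57 TPM in Ovol2b-Tg, 2.78 and 3.49 TPM in Ovol2a/2b-Tg and 0 and 0.207 TPM in Cdh1-Tg, against 7.97 and 8.93 TPM in WT. Its Ovol3KO level was 7.03 times the WT level, and this rise (2.67 ± 0.27, limma, BH adjusted p = 1.38e-06) was the largest of the 5 factors. It fell in Ovol2KO (−1.89 ± 0.27), TKO (−2.68 ± 0.27), Ovol2a/2b-Tg (−1.19 ± 0.27), Ovol2b-Tg (−1.66 ± 0.27) and Cdh1-Tg (−3.10 ± 0.27), with BH adjusted p of 0.00282 or less in limma. The Cdh1-Tg values rest on 0 and 2 reads and gave 1.12% of WT (95% exact interval 0.134% to 4.18%), and the 6 reads of TKO gave 5.8% (2.07% to 13.2%). In Ovol1KO it had 26.6 and 16.2 TPM and was called (1.20 ± 0.27, limma, BH adjusted p = 0.0318). That call ends without either WT library, without replicate 1 of Ovol1KO (0.86, adjusted p 0.323) and on the recovered reads (1.14, adjusted p 0.118).

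Tbx3 ran against these 4. It had 151 and 175 TPM in PGCLC of Ovol2KO, 155 and 154 TPM in TKO, 153 and 165 TPM in Ovol2b-Tg, 114 and 135 TPM in Ovol2a-Tg, 117 and 119 TPM in Cdh1-Tg and 105 and 118 TPM in Ovol2a/2b-Tg, against 106 and 86.0 TPM in WT. In Ovol3KO it had 41.1 and 36.8 TPM and in Ovol1KO 57.9 and 73.4 TPM, both under WT. It fell in Ovol3KO (−1.28 ± 0.12, limma, BH adjusted p = 8.91e-07). In the lines where the other 4 fell, its log2 difference was 0.76 ± 0.12 in Ovol2KO (limma, BH adjusted p = 0.000255), 0.69 ± 0.12 in TKO (limma, BH adjusted p = 0.000409), 0.73 ± 0.12 in Ovol2b-Tg (limma, BH adjusted p = 0.000323) and 0.30 ± 0.12 in Cdh1-Tg (limma, BH adjusted p = 0.0605). The first 3 passed the p threshold and none passed the fold threshold. In Ovol1KO the difference was −0.54 ± 0.12 (limma, BH adjusted p = 0.0319).

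Counted by line, 4 members fell in PGCLC of Ovol2KO, where 4.07% of all genes tested fell and 4.11% rose, and 4 fell in TKO, where 4.95% fell and 5.58% rose. In Cdh1-Tg 4 fell (4.3% of all genes fell, 5.56% rose), in Ovol2b-Tg 4 fell (3.14% fell) and in Ovol2a/2b-Tg 3 fell (2.95% fell). Ovol3KO had 4 members that rose, where 4.34% of all genes rose, and 1 that fell, where 8.5% fell. Ovol1KO had 1 that rose (0.493% of all genes rose). Ovol2a-Tg had 0 members called, where 3.43% of all genes were called in either direction. At an unadjusted p under 0.05 in limma 3 differed. Of these, Esrrb and Tbx3 also passed the BH adjusted p threshold and missed only the fold threshold. On the recovered reads limma-voom called 0 in Ovol2a-Tg. Its Esrrb (−0.91 ± 0.28) and Tfcp2l1 (−0.82 ± 0.28) lay below WT in both libraries. The count of members called depended on replicate 1 of this line, 1 of the pair tagged as EpiLC.

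**Figure D2:**
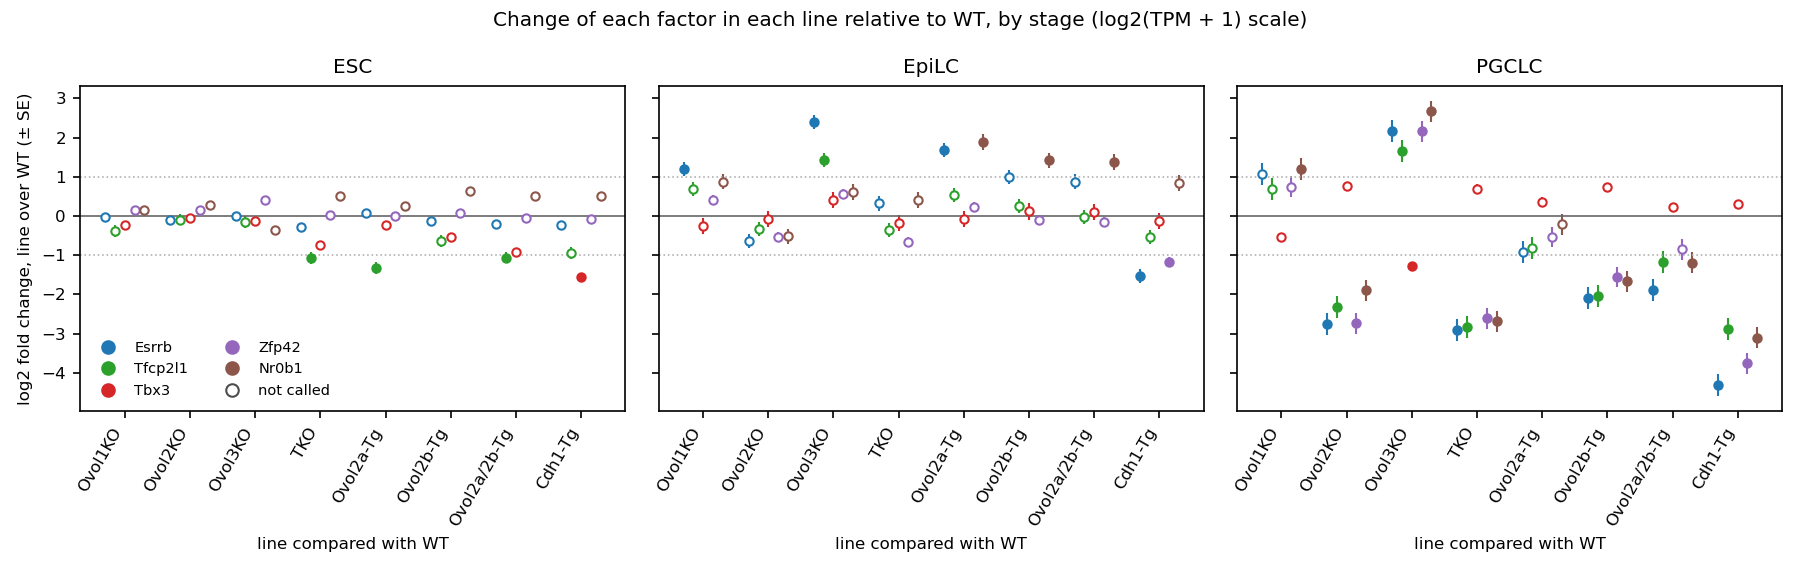
Log2 fold change of each line over WT on the log2(TPM + 1) scale (vertical axis, point ± SE) at each stage, by line (horizontal axis) and factor (colour), with filled points for called changes and dotted lines at the fold threshold. In PGCLC the red Tbx3 points lie on the other side of 0 from the other 4 factors in all 8 lines.

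Over the 9 PGCLC line means on the log2(TPM + 1) scale, the pairwise Pearson r among Esrrb, Tfcp2l1, Zfp42 and Nr0b1 was 0.98 to 0.99, and that of Tbx3 with each of the 4 was −0.84 to −0.90. Each mean comes from 2 libraries of 1 line, WT is 1 of the 9, and no p is given. The same 4 factors were not alike in ESC, where Nr0b1 ran against the others, Tbx3 included (r of −0.62 to −0.74), and Tbx3 ran with Esrrb (0.76), Tfcp2l1 (0.61) and Zfp42 (0.57). In EpiLC Esrrb, Tfcp2l1 and Zfp42 kept together (0.89 to 0.91), and Nr0b1 did so less (0.28 to 0.48). Tbx3 had an r of 0.10 to 0.57 with the others in EpiLC, where it was near 0 throughout.

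**Figure D3:**
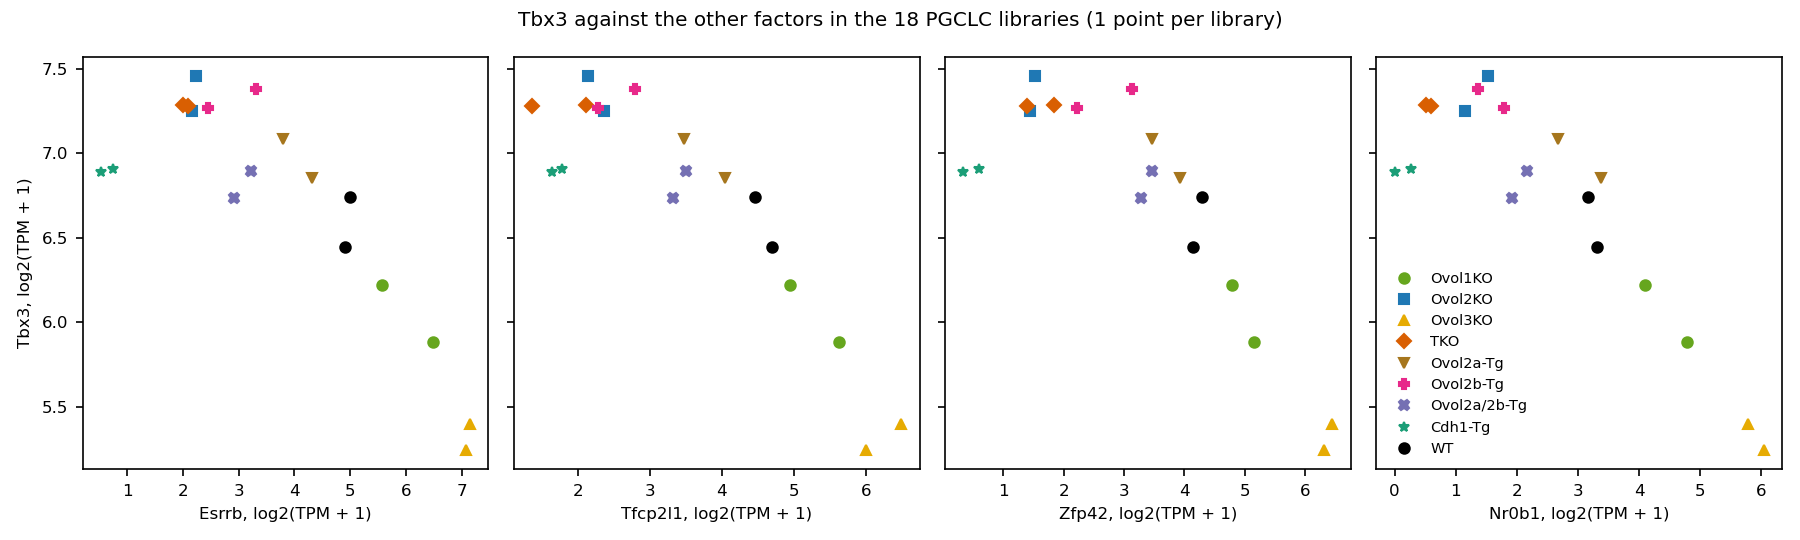
Tbx3 level (vertical axis, log2(TPM + 1)) against each of the other 4 factors (horizontal axes, log2(TPM + 1)) in the 18 PGCLC libraries, 1 point per library, with markers by line. Ovol3KO sits at high values of the 4 factors and low Tbx3, Ovol2KO, TKO and Ovol2b-Tg sit at the opposite corner, and Cdh1-Tg has the lowest means of the 4 without the highest Tbx3.

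Between lines other than WT, TKO and Ovol2KO were close: 0 members were called, where 0.985% of all genes were. The largest difference was in Nr0b1, at 0.431 and 0.509 TPM in TKO against 1.23 and 1.90 TPM in Ovol2KO (−0.79 ± 0.27, limma, BH adjusted p = 0.0993). At an unadjusted p under 0.05 in limma 1 of the 5 members differed, and limma-voom on the recovered reads called 0. The transgenic lines were each set against the same TKO pair, and the differences among them were not tested. In Ovol2a-Tg 4 members were higher than in TKO, where 1.89% of all genes were higher. Nr0b1 had 9.37 and 5.40 TPM in Ovol2a-Tg against 0.431 and 0.509 TPM in TKO (2.47 ± 0.27, limma, BH adjusted p = 3.64e-05), and Esrrb (2.00 ± 0.28), Tfcp2l1 (2.02 ± 0.28) and Zfp42 (2.08 ± 0.26) rose with it (limma, BH adjusted p of 0.000315 or less). By the values above, Esrrb, Tfcp2l1 and Zfp42 in Ovol2a-Tg lay between TKO and WT in both libraries, and Nr0b1 overlapped WT.

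In Ovol2a/2b-Tg 4 members were also higher than in TKO, where 4.33% of all genes were higher. Zfp42 rose by 1.76 ± 0.26 (limma, BH adjusted p = 9.33e-05), Tfcp2l1 by 1.67 ± 0.28, Nr0b1 by 1.49 ± 0.27 and Esrrb by 1.03 ± 0.28 (limma, BH adjusted p = 0.00934). The Esrrb call ends on the recovered reads (1.20, adjusted p 0.193) and without replicate 1 of TKO (0.99) or replicate 2 of Ovol2a/2b-Tg (0.88). In Ovol2b-Tg 0 members were called against TKO, where 0.354% of all genes were. Its differences were 0.80 to 1.06 in the 4 factors (limma, BH adjusted p of 0.0616 or more). In limma 4 members had an unadjusted p under 0.05, and limma-voom on the recovered reads called 0. The count of members called depended on replicate 1 of Ovol2b-Tg. Ovol2b-Tg also had less Ovol2 mRNA than the other lines with an Ovol2 transgene, as given above. Its part in these differences was not tested.

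Cdh1-Tg PGCLC lay below TKO in 2 members, where 1.3% of all genes were lower. Esrrb fell by 1.40 ± 0.28 (limma, BH adjusted p = 0.00303), at 0.449 and 0.685 TPM in Cdh1-Tg against 3.02 and 3.25 TPM in TKO. Zfp42 fell by 1.15 ± 0.26 (limma, BH adjusted p = 0.00612), at 0.266 and 0.517 TPM in Cdh1-Tg against 2.58 and 1.62 TPM in TKO. Both calls rest on few reads, 13 and 17 for Esrrb and 3 and 5 for Zfp42 in Cdh1-Tg. On the recovered reads the Esrrb difference was larger, at −2.56, and not called (adjusted p 0.129), and the Zfp42 call ends without replicate 1 of either line. Cdh1 itself was at 42.3 and 35.4 TPM in PGCLC of Ovol2KO, 24.0 and 17.2 TPM in TKO and 54.8 and 57.97 TPM in Ovol2b-Tg, against 312 and 319.7 TPM in WT. Cdh1 was thus low in Ovol2KO, TKO and Ovol2b-Tg, where the 4 factors were low. In Cdh1-Tg, the line labelled as overexpressing it and also low in the 4 factors, it was at 562 and 563 TPM. It was at 98.4 and 90.3 TPM in Ovol2a-Tg and at 173 and 174 TPM in Ovol2a/2b-Tg. The means of all 4 factors were in the opposite order, higher in Ovol2a-Tg. The part of Cdh1 in the members' values was not tested.

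Set against the ESC of the same line, PGCLC kept very different shares of each factor. WT PGCLC had 8.42% of the ESC level of Esrrb, 7.62% of Tfcp2l1, 12.6% of Zfp42, 8.06% of Nr0b1 and 82.3% of Tbx3. Ovol3KO kept far more of the 4 factors, 38.3% of Esrrb, 28.1% of Tfcp2l1, 44.1% of Zfp42 and 72.3% of Nr0b1, and 36.5% of Tbx3. TKO kept 1.06% of Esrrb, 1.71% of Tfcp2l1, 1.47% of Zfp42 and 0.312% of Nr0b1, and 219% of Tbx3. In Cdh1-Tg the shares were 0.188% for Esrrb, 1.46% for Tfcp2l1, 0.291% for Zfp42 and 0.0693% for Nr0b1 (on 2 reads in PGCLC), and Tbx3 stood at 303% of its low ESC level. Ovol3KO is the line in which the 5 shares came closest to each other.

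**Figure D4:**
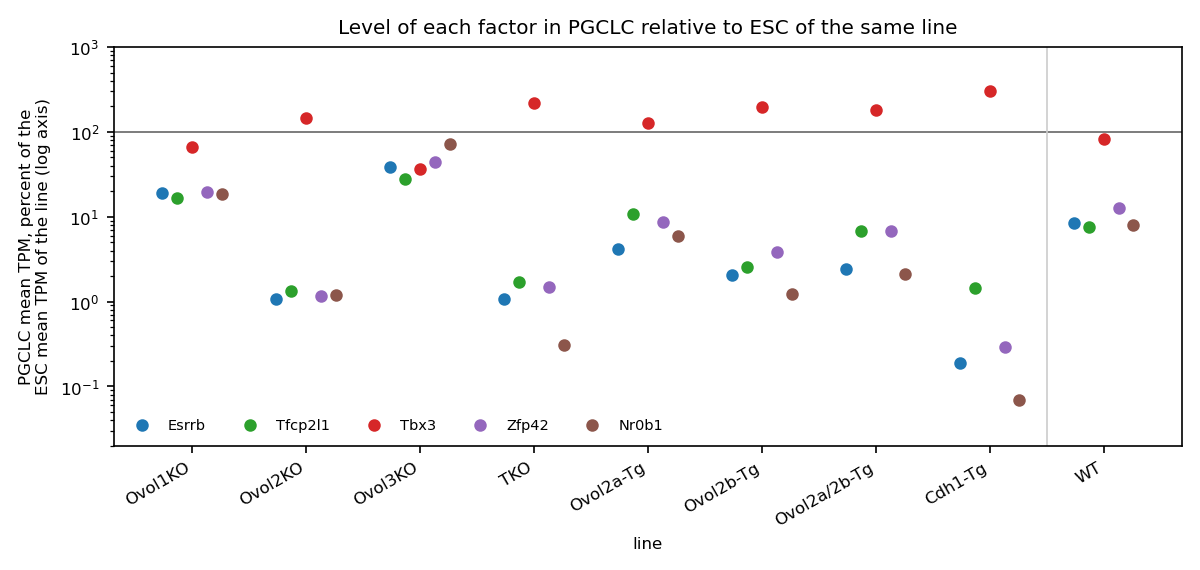
Mean PGCLC level of each factor as a percent of the mean ESC level of the same line (vertical log axis), by line (horizontal axis, WT at the right), with a line at 100%. Tbx3 lies above 100% in Ovol2KO, TKO and the 4 transgenic lines, while the other factors lie at or under 10.8% there.

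Whether the effect of a line differed between PGCLC and ESC was tested in the fit of all 54 libraries. In Ovol2KO 4 members had a lower effect in PGCLC, where 3.84% of all genes did, with Zfp42 at −2.90 ± 0.25 (limma, BH adjusted p = 4.73e-11). In TKO 4 were lower (5.17% of all genes) and Tbx3 was higher (1.42 ± 0.22, limma, BH adjusted p = 4.22e-06, 8.53% of all genes). In Cdh1-Tg 4 were lower (4.63%) and Tbx3 higher (1.86 ± 0.22, limma, BH adjusted p = 2.87e-08, 8.62%). Ovol2b-Tg had 4 lower (4.13%) and Tbx3 higher (1.27 ± 0.22, limma, BH adjusted p = 2.77e-05, 9.34%). Ovol2a/2b-Tg had 2 lower, Esrrb and Nr0b1 (3.25%), and Tbx3 higher (1.13 ± 0.22, limma, BH adjusted p = 0.000214, 6.1%). Relative to its own ESC effect, then, Tbx3 was up in PGCLC of 4 lines in which it missed the fold threshold against WT PGCLC, and its ESC level in these lines was below WT, as given above. With a pseudocount of 0.1 the Tbx3 differences were close to those above but not called, at 1.43 in TKO (adjusted p 0.127), 1.28 in Ovol2b-Tg (adjusted p 0.173) and 1.14 in Ovol2a/2b-Tg (adjusted p 0.283).

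Ovol3KO showed the reverse, with 4 members higher in PGCLC than in ESC relative to WT, where 5.18% of all genes were, and Tbx3 lower (−1.15 ± 0.22, limma, BH adjusted p = 8.3e-05, 9.8%). Nr0b1 led with 3.02 ± 0.29 (limma, BH adjusted p = 4.5e-10), having been below WT in ESC. The Tbx3 call of Ovol3KO ends with a pseudocount of 0.1 (−1.17, adjusted p 0.201) and with quantile scaling (−0.92). Ovol1KO had 3 higher, Esrrb, Tfcp2l1 and Nr0b1, at 1.05 to 1.09 (limma, BH adjusted p between 0.0374 and 0.0422), where 0.86% of all genes were. All 3 end on the recovered reads and when replicate 1 of Ovol1KO PGCLC is left out (0.63 to 0.74). Ovol2a-Tg had 0 called in either direction, where 7.89% of all genes were. At an unadjusted p under 0.05 in limma 3 differed, some of which also passed the BH adjusted p threshold and missed only the fold threshold. On the recovered reads limma-voom called 1.

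Further genes of the network were set beside the members in 6 PGCLC comparisons with WT, those in which 3 or more members were called. Of the 10 other pluripotency factors 5 fell in Ovol2KO, 6 in TKO and 6 in Cdh1-Tg, with 0 that rose in any of these (medians −0.99, −1.29 and −1.16, against 0.036, 0.032 and 0.063 over all genes). In Ovol2b-Tg 4 fell and in Ovol2a/2b-Tg 3 fell, with 0 that rose (medians −0.77 and −0.51, against 0.035 and 0.028). Nanog fell by 2.57 ± 0.21 in Ovol2KO, 2.76 ± 0.21 in TKO and 2.26 ± 0.21 in Cdh1-Tg, and Klf2 by 2.48 ± 0.23, 2.38 ± 0.23 and 3.98 ± 0.23. NANOG and KLF2 are partners of ESRRB and TFCP2L1 in the network. In Ovol3KO 5 of the 10 rose, led by Nr5a2 (2.41 ± 0.26), Sox2 (1.87 ± 0.21) and Klf2 (1.34 ± 0.23), and Gbx2 fell (−1.78 ± 0.16). The 14 naive ESC transcripts had 10 falls in Ovol2KO, 10 falls and 1 rise in TKO, 10 falls and 1 rise in Cdh1-Tg, and 14 rises in Ovol3KO (medians −2.20, −1.37, −2.38 and 2.81). They had 7 falls and 1 rise in Ovol2b-Tg, and 5 falls and 1 rise in Ovol2a/2b-Tg (medians −1.01 and −0.59). Dppa5a fell most, by 3.07 ± 0.3 in Ovol2KO, 3.10 ± 0.3 in TKO and 6.06 ± 0.3 in Cdh1-Tg. Pecam1 was the transcript that rose in TKO (1.93 ± 0.34) and Cdh1-Tg (2.31 ± 0.34).

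Genes of the network's signalling inputs were counted in the same comparisons. Of the 14416 genes tested, 744 rose and 453 fell in Ovol2b-Tg, and 674 rose and 425 fell in Ovol2a/2b-Tg. The shares of all genes for Ovol2KO, TKO, Cdh1-Tg and Ovol3KO are given above. Medians over all genes are also given above, and that of Ovol3KO was −0.115. A count of 1 in such a short list is not read as a change of the list. Among 6 genes of the LIF, JAK and STAT3 input 3 rose in Ovol2KO, 2 in TKO and 4 in Cdh1-Tg, and 0 fell (medians 0.90, 0.81 and 1.13). In Ovol2b-Tg 2 rose and in Ovol2a/2b-Tg 4 rose, and 0 fell (medians 0.79 and 1.29). Socs3, a STAT3 target that damps the pathway, rose by 1.62 ± 0.22 in Ovol2KO, 1.53 ± 0.22 in TKO and 1.70 ± 0.22 in Cdh1-Tg. Lifr, the LIF receptor gene, rose by 1.13 ± 0.15 in Ovol2KO and 1.45 ± 0.15 in Cdh1-Tg, and it rose in TKO as well. In Ovol3KO 1 of the 6, Jak2, fell (−1.92 ± 0.27). Of 6 genes of the WNT and TCF input 1 rose in Ovol2KO (Lef1, 1.14 ± 0.16), 1 rose and 1 fell in TKO, and 2 fell in Cdh1-Tg, whereas Ovol3KO had 4 falls, led by Lef1 (−2.72 ± 0.16), and a rise of the repressor gene Tcf7l1 (1.69 ± 0.12). Of 8 FGF and ERK genes 1 rose and 1 fell in Ovol2KO, 1 rose in TKO, 1 rose and 1 fell in Cdh1-Tg, and 3 rose and 1 fell in Ovol3KO. In Ovol2a/2b-Tg 1 WNT gene fell, 1 FGF gene rose and 3 FGF genes fell, and in Ovol2b-Tg 1 WNT gene fell and 1 FGF gene rose.

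Markers of other cells moved with these differences. The summed level of 6 lateral and extraembryonic mesoderm genes was 1210 to 1405 TPM in PGCLC of Ovol2KO, 1586 to 1763 TPM in TKO, 1365 to 1545 TPM in Ovol2b-Tg, 1021 to 1054 TPM in Cdh1-Tg and 23.2 to 33.6 TPM in Ovol3KO, against 194 to 258 TPM in WT. Of the 6, 4 rose in Ovol2KO, 5 in TKO and 4 in Cdh1-Tg, and all 6 fell in Ovol3KO (medians 2.17, 2.71, 2.55 and −2.06). In Ovol2b-Tg 5 rose, and in Ovol2a/2b-Tg 4 rose and 1 fell (medians 2.66 and 1.69). None of the 6 was at 0 throughout any PGCLC group. Hand1, a mesoderm and extraembryonic factor, had 1007 and 1197 TPM in Ovol2KO, 1308 and 1469 TPM in TKO, 875 and 849 TPM in Cdh1-Tg and 2.41 and 1.29 TPM in Ovol3KO, against 141 and 80.9 TPM in WT. In PGCLC the means of Tbx3, Hand1, Foxf1 and Isl1 were all lowest in Ovol3KO and above WT in Ovol2KO, TKO and the transgenic lines. Counts over all 6 genes are given above. This held for PGCLC only: in WT ESC the 6 genes summed to 2.95 to 5.07 TPM, with Tbx3 at 117 and 117 TPM. The part of the mesoderm genes in the Tbx3 values was not tested.

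**Figure D5:**
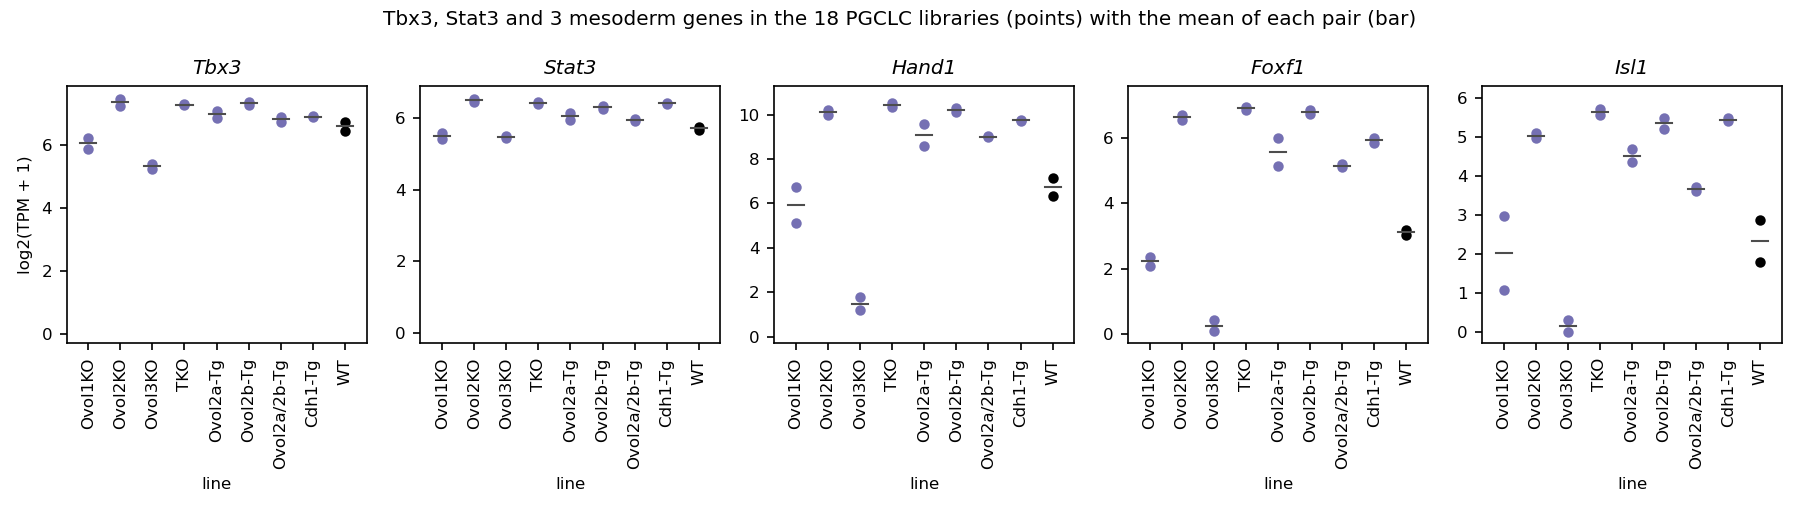
Levels of Tbx3, Stat3 and the mesoderm genes Hand1, Foxf1 and Isl1 as log2(TPM + 1) (vertical axes) in the 18 PGCLC libraries, 1 point per library with a bar at the mean of each pair, by line (horizontal axis, WT in black at the right). The mean of each is lowest in Ovol3KO and stands above WT in Ovol2KO, TKO and the transgenic lines.

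The 6 early germ cell genes summed to 66.6 to 92.3 TPM in Ovol2KO, 68.4 to 77.8 TPM in TKO, 123 to 129 TPM in Cdh1-Tg and 354 to 359 TPM in Ovol3KO, against 154 to 164 TPM in WT. Of these 6 genes 3 fell in Ovol2KO, 3 fell in TKO, 2 fell and 1 rose in Cdh1-Tg, and 2 rose and 1 fell in Ovol3KO. The 6 primitive streak genes summed to 1389 to 1459 TPM in Ovol2KO, 1147 to 1301 TPM in TKO, 1177 to 1402 TPM in Ovol2b-Tg, 589 to 776 TPM in Ovol2a/2b-Tg, 1155 to 1186 TPM in Cdh1-Tg and 137 to 272 TPM in Ovol3KO, against 1936 to 1998 TPM in WT. Of these genes 5 fell in Ovol3KO and 5 in Ovol2a/2b-Tg (medians −4.23 and −1.69), 1 or 2 fell in the other 4 lines, and 1 rose in TKO. The 6 immediate early and heat shock genes summed to 689.6 to 752 TPM in Ovol2KO, 643 to 754 TPM in TKO, 636 to 786 TPM in Ovol2b-Tg, 116 to 128 TPM in Ovol2a/2b-Tg, 121 to 138 TPM in Cdh1-Tg and 194 to 297 TPM in Ovol3KO, against 881 to 1097 TPM in WT. Of these genes 3 fell in Ovol3KO, 2 in Cdh1-Tg and 2 in Ovol2a/2b-Tg. The 8 fibroblast genes summed to 147 to 156 TPM in Ovol2KO, 323 to 330 TPM in TKO, 307 to 325 TPM in Cdh1-Tg and 10.6 to 10.6 TPM in Ovol3KO, against 28.9 to 37.1 TPM in WT, with Lum and Postn at 0 in WT. Trophoblast markers (10 genes) summed to 118 to 122 TPM, 138 to 172 TPM, 107 to 112 TPM and 21.1 to 31.1 TPM in the same lines, against 59.5 to 67.9 TPM in WT, and the defining markers Tpbpa and Prl3d1 were at 0 in all of them. Primitive endoderm markers (11 genes) summed to 58.3 to 59.97 TPM, 80.5 to 84.4 TPM, 75.5 to 76.1 TPM and 6.89 to 7.86 TPM, against 23.7 to 35.5 TPM in WT, with Ttr at 0 in all of them. The 4 Y-linked genes tested all fell in Ovol2KO, TKO and Cdh1-Tg (medians −4.00, −3.16 and −3.26) and 1 of them in Ovol3KO. Their sum was 61.5 to 65.5 TPM in WT PGCLC and 31.3 to 32.7 TPM in Ovol3KO. It was also low in Ovol1KO (7.42 to 8.83 TPM), Ovol2a-Tg (6.71 to 8.47 TPM), Ovol2b-Tg (0 to 0.0222 TPM) and Ovol2a/2b-Tg (0 to 0.524 TPM). Every line other than WT was below WT in this PGCLC sum. Low sums were present in ESC, at 3.50 to 5.16 TPM in Ovol1KO and 2.67 to 3.31 TPM in TKO, against 53.3 to 64.6 TPM in WT. The immediate early and heat shock sum of Cdh1-Tg and Ovol2a/2b-Tg was also low before PGCLC. In ESC it was 23.3 to 29.4 TPM in Cdh1-Tg and 66.1 to 74.8 TPM in Ovol2a/2b-Tg, against 333 to 395 TPM in WT. In EpiLC it was 40.3 to 43.5 TPM and 58.9 to 67.9 TPM, against 111 to 151 TPM in WT. The part of these differences in the members' values was not tested.

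In the order of the 27 group means, ESC groups filled the 9 highest places for Esrrb, Tfcp2l1, Zfp42 and Nr0b1, and Ovol3KO PGCLC came next for each. Tbx3 differed: its 5 highest means were PGCLC groups, led by Ovol2KO, and its 9 lowest were the EpiLC groups. Of 26 neighbouring pairs in each order, the libraries overlapped in 10 for Esrrb, 13 for Tfcp2l1, 19 for Tbx3, 12 for Zfp42 and 13 for Nr0b1, so those neighbours did not differ beyond their spread. Within PGCLC, Ovol3KO, Ovol1KO and WT led in that order for the same 4 factors and were the last 3 for Tbx3, with WT the highest of them. Within PGCLC, neighbours in Tbx3 overlapped from Ovol2KO through Ovol2b-Tg to TKO, and from Ovol2a-Tg through Cdh1-Tg and Ovol2a/2b-Tg to WT. In Esrrb the overlap was of Ovol2a/2b-Tg with Ovol2b-Tg, and in Zfp42 of TKO with Ovol2KO. In Tfcp2l1 Ovol2a-Tg overlapped Ovol2a/2b-Tg, Ovol2b-Tg overlapped Ovol2KO, and TKO overlapped Cdh1-Tg. In Nr0b1 WT overlapped Ovol2a-Tg and Ovol2b-Tg overlapped Ovol2KO.

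The genes with the pattern most like each member were found by Pearson r of log2(TPM + 1) over the 27 group means. Each r is a description over groups that share their stages. For Esrrb they were Avpi1 (0.977), Zfp296 (0.973) and Fbxo15 (0.971), and for Tfcp2l1 they were Ulk1 (0.983), Nr5a2 (0.981) and Cd9 (0.975). For Tbx3 they were Stat3 (0.977), Prkag1 (0.976) and Mesdc1 (0.975), which are nearly tied, so their order is not read as a link. Stat3 encodes the transcription factor that acts below the LIF receptor. Stat3 had 93.0 and 88.0 TPM in PGCLC of Ovol2KO, 83.2 and 87.6 TPM in TKO and 42.5 and 44.9 TPM in Ovol3KO, against 53.7 and 50.3 TPM in WT. For Zfp42 they were Triml1 (0.982), Tdrp (0.980) and AU018091 (0.978), and for Nr0b1 they were Nod1 (0.972), Aoah (0.972) and Rpp25 (0.966), with Zfp42 next (0.965). Triml1 lies 153.6 kb from Zfp42 with 1 protein-coding gene between them. It had 19.5 and 20.7 TPM in Ovol3KO PGCLC and 0.476 and 0 TPM in Ovol2KO PGCLC, against 4.10 and 2.89 TPM in WT. Tbx3 had an r of 0.271 with Esrrb, 0.58 with Tfcp2l1, −0.07 with Zfp42 and −0.055 with Nr0b1 over the 27 groups, while Zfp42 and Nr0b1 reached 0.965 with each other.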

How the data were processed

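Poly(A) RNA of 54 libraries was sequenced from directional libraries amplified over 12 PCR cycles, per the labels' protocols. HISAT2, featureCounts, edgeR and the build mm10 are named in the submitters' processing notes, without versions. The annotation and the strandedness of counting were not stated there. Values were deposited by the authors as TPM for 20036 genes. TPM of every gene above 0 (17973 of 17973) came out as whole reads within 0.001, which gave the depths. Depth limits scarce transcripts, and intervals and floors (3 reads) cover counting error only. None of the 27 pairs agreed within counting noise (chi-square per degree of freedom 1.05 to 10.43).

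Values log2(TPM + 1) of 14416 genes were fitted with limma 3.58.1 in R 4.3.3 (trend and robust options), 18 libraries per stage for lines, all 54 for WT stages and for differences between stages, with BH adjustment over all genes. Errors on fold changes are standard errors. Groups follow titles. In the table, 2 columns (EpiLC Ovol2b-Tg) could be tied to their group but not to single samples. Replicate numbers did not pair the libraries. The alternatives were a pseudocount of 0.1, no filter, no fold threshold, quantile scaling, all libraries in 1 fit, a replicate block, each library left out, and limma-voom on the recovered reads. The procedure was tested on simulated data. The genes nearest to each member in pattern are the 3 with the highest r, and from a list at most 3 genes changed each way are named. Members and lists were chosen with earlier results of these data known.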

Additional observations from a re-analysis of the deposited data

Results flagged for a closer look

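The effect of a line relative to WT differed between PGCLC and ESC in 30 tests of a member, each a log2 difference of differences from limma on all 54 libraries that passed the BH adjusted p threshold and the fold threshold. A positive value means a higher effect in PGCLC. In Ovol1KO the difference was 1.09 for Esrrb, 1.09 for Tfcp2l1 and 1.05 for Nr0b1, and these calls end under several alternatives, as given above. In Ovol2KO the difference was −2.65 for Esrrb, −2.24 for Tfcp2l1, −2.90 for Zfp42 and −2.18 for Nr0b1. In Ovol3KO the difference was 2.15 for Esrrb, 1.82 for Tfcp2l1, −1.15 for Tbx3, 1.75 for Zfp42 and 3.02 for Nr0b1. In TKO the difference was −2.64 for Esrrb, −1.77 for Tfcp2l1, 1.42 for Tbx3, −2.63 for Zfp42 and −3.20 for Nr0b1. In Ovol2b-Tg the difference was −1.95 for Esrrb, −1.40 for Tfcp2l1, 1.27 for Tbx3, −1.62 for Zfp42 and −2.29 for Nr0b1. In Ovol2a/2b-Tg the difference was −1.68 for Esrrb, 1.13 for Tbx3 and −1.71 for Nr0b1. In Cdh1-Tg the difference was −4.07 for Esrrb, −1.93 for Tfcp2l1, 1.86 for Tbx3, −3.69 for Zfp42 and −3.61 for Nr0b1.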

How the results depend on the processing

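No member call of the main fit changed direction under any alternative run. Directions of differences that were not called were not compared. The counts of members below carry no share over all genes, so they do not show more calls than among genes at large. Dropping the fold threshold can only add calls, for all genes as well. Without the fold threshold the counts of members called in ESC were 1 in Ovol2KO, 2 in Ovol3KO, 4 in TKO, 2 in Ovol2a-Tg, 3 in Ovol2b-Tg, 3 in Ovol2a/2b-Tg and 4 in Cdh1-Tg, those in EpiLC were 3 in Ovol1KO, 2 in Ovol2KO, 4 in Ovol3KO, 1 in TKO, 2 in Ovol2b-Tg, 2 in Ovol2a/2b-Tg and 4 in Cdh1-Tg, those in PGCLC were 2 in Ovol1KO and 2 in Ovol2a-Tg, and the PGCLC minus ESC difference had 2 in Ovol2a-Tg. With a pseudocount of 0.1 EpiLC Ovol2b-Tg had 2, PGCLC Ovol1KO 0, and the PGCLC minus ESC difference 0 in Ovol1KO and 1 in Ovol2a-Tg. That difference had 0 in Ovol1KO without the filter and 1 in Ovol2a-Tg with quantile scaling. With limma-voom on the recovered reads, chosen after seeing the data, counts were 0 in ESC TKO, 0 in EpiLC Ovol1KO, 0 in PGCLC Ovol1KO, 1 in PGCLC Cdh1-Tg against TKO, and 0 (Ovol1KO) and 1 (Ovol2a-Tg) in the PGCLC minus ESC difference. In the fit of all 54 libraries PGCLC Ovol1KO had 2 and Ovol2b-Tg against TKO had 2.

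Leaving out each library in turn gave 0 to 2 in PGCLC Ovol1KO and PGCLC Ovol2a-Tg, 0 to 1 in ESC TKO, ESC Ovol2a/2b-Tg and Ovol2b-Tg against TKO, 1 to 2 in ESC Cdh1-Tg, EpiLC Ovol1KO, EpiLC Ovol2b-Tg and Cdh1-Tg against TKO, 2 to 3 in EpiLC Cdh1-Tg, 3 to 4 in Ovol2a/2b-Tg against TKO and in WT PGCLC against EpiLC, and, for the PGCLC minus ESC difference, 0 to 3 in Ovol1KO, 0 to 1 in Ovol2a-Tg, 2 to 3 in Ovol2a/2b-Tg and 4 to 5 in Ovol3KO. A library left alone in its group is assumed to vary like the other groups. Of single member calls, 8 of 91 were lost with limma-voom, 8 with the smaller pseudocount, 3 without the filter, 1 with quantile scaling and 31 of 484 when a library was left out. The cause was not tested. Same-numbered libraries did not deviate together (r −0.13 to 0.2 over 23 pairs, 2 over 0.1), and with the replicate block the count of members called was the same in 39 of 39 comparisons (90 calls in both).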
